A study of Homo sapiens with 4 samples.

Results

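HEK293 cells were examined for message of 9 genes that carry cytokine signals from the cell surface to the nucleus. These are the Janus kinases JAK1, JAK2, JAK3 and TYK2 and the signal transducers and activators of transcription STAT2, STAT3, STAT5A, STAT5B and STAT6. Members were chosen by name, as the probes whose RefSeq accession maps to 1 of the listed genes. The choice was made with earlier results of these data known, but the rule itself uses no measured value. They are 9 of 17217 named genes on the array and 27 of 71998 probes, with 3 probes to a gene. HEK293 is a line of human embryonic kidney origin transformed with adenovirus DNA and much used to express cloned receptors. The study has 1 group of 4 biological replicates, each an untreated culture in serum-containing medium with penicillin and streptomycin, harvested under basal conditions. Total RNA was copied into cDNA from an oligo(dT) primer, and the Cy3-labelled product was applied to a single-colour NimbleGen array of long oligonucleotide probes. There is no second cell line or treatment among the samples used here, so the question asked is which members of the pathway these cells contain message for.

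Janus kinases sit on the inner tails of cytokine receptors that have no kinase of their own. When a cytokine draws the receptor chains together, the kinases phosphorylate each other, the receptor and then a STAT protein, which pairs up and enters the nucleus to act on its target genes. JAK1, JAK2 and TYK2 are used by many receptors in many tissues, whereas JAK3 works with the common gamma chain of lymphocyte cytokine receptors. STAT2 acts after type I interferons, STAT3 after interleukin 6 and its relatives, STAT5A and STAT5B after prolactin, growth hormone, erythropoietin and interleukin 2, and STAT6 after interleukins 4 and 13.

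Values are log2 intensities of probes, and a gene's level is log2 of the mean linear value of its probes. The study's own threshold was used. On each array the baseline is the mean plus 2 SD of control genes for seminal proteins, thought not to be transcribed in this line, and a gene's distance is its level minus that array's baseline. A gene is called detected where its mean distance over the 4 arrays is above 0. Baselines were 9.47, 9.94, 10.69 and 10.32 log2 units on replicates 1 to 4, and 10 of 11 control genes were matched. Of these, AFG2A (listed as SPATA5) and SPATA13 had mean levels of 9.97 and 9.72, while the other controls had mean levels of 6.53 to 7.25. Pearson's r between arrays across genes, which are not independent replicates, was 0.949 to 0.977. Sorted probe values matched within 0.01 at 99.97% of ranks for replicates 1 and 2 and at 99.99% for replicates 3 and 4, but at no more than 1.25% for arrays of different pairs. Of 8 identity genes, 6 were detected, where 52.7% of all named genes were. Among them were VIM at 5.26 ± 0.64, KRT8 at 4.80 ± 0.66 and NEFL at 4.01 ± 0.56 log2 units of distance (SD, n = 4 for each). These are genes for filaments of mesenchymal, epithelial and neuronal cells. The kidney development factors PAX2 and LHX1 were below the baseline on all 4 arrays. None of 12 leukocyte markers was detected, and all 12 were below the baseline on every array, with mean distances from -3.56 to -0.75. Of 17217 named genes, 6855 were below the baseline on every array.

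HEK293 cells held message for the kinases JAK1 and TYK2 and for most of the STAT factors measured. Of the 9 members, 6 were detected (JAK1, TYK2, STAT2, STAT3, STAT5B and STAT6), where 52.7% of all named genes were. These 6 also lay above the baseline on all 4 arrays, as 45.0% of all named genes did. In a one-sided limma test of the distance against 0, the same 6 passed an adjusted p of 0.05, against 45.9% of all named genes. Of the remainder, STAT5A lay at the baseline, JAK2 below it on 3 of 4 arrays and JAK3 below it on all 4. The median distance was 2.38 log2 units over the members and 0.26 over all named genes. With 9 genes these shares and medians are descriptions of this list. Distances of different genes come from different probes, each with its own affinity, so they say how far a gene stood from the threshold and are no measure of its amount of message beside that of another gene.

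**Figure D1:**
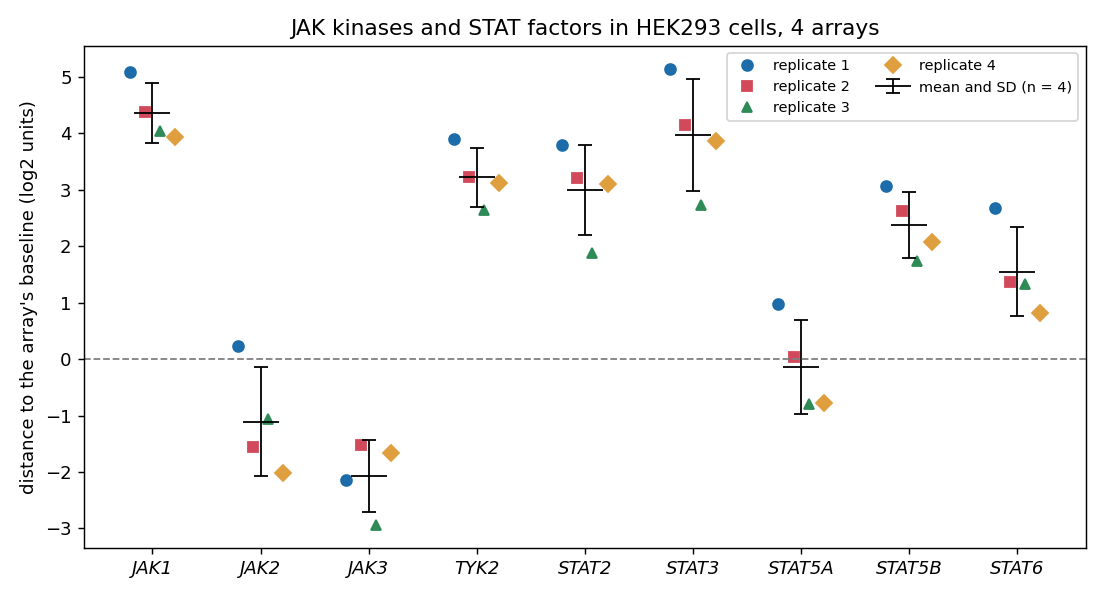
Distance of each JAK and STAT gene to the array's baseline (log2 units, vertical axis) on each of the 4 arrays, with the mean and SD as a bar; the dashed line at 0 is the detection threshold. JAK1, TYK2, STAT2, STAT3, STAT5B and STAT6 lie above the line on all 4 arrays, STAT5A straddles it, and JAK3 lies below it on all 4.

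Among the kinases, JAK1 had levels of 14.56, 14.32, 14.73 and 14.25 log2 units on replicates 1 to 4. JAK1 is the kinase shared by the interferon, interleukin 6 and gamma chain receptors. Its distances were 5.09, 4.38, 4.04 and 3.93, a mean of 4.36 ± 0.52 (SD, n = 4), so that every array stood clear of the baseline by several times the spread between arrays. Each of its 3 probes passed the baseline on every array.

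TYK2, the partner of JAK1 at the type I interferon receptor, had levels of 13.38, 13.17, 13.33 and 13.44 log2 units, an SD of 0.11 over the arrays against a median SD of 0.42 for all named genes. The distance was 3.91, 3.23, 2.64 and 3.11 on replicates 1 to 4, with a mean of 3.22 ± 0.52 (SD, n = 4). The gene's level, taken over its 3 probes, was thus nearly the same on the arrays, while its distance also carries the spread of the baselines. On replicate 3 its second probe read 11.86, apart from 13.36 to 13.61 on the others, while probe 3 ran from 12.99 to 13.20. Probe 1 was highest on that array, at 14.11. Single probes therefore spread more than the gene's level, with SDs of 0.45 for probe 1 and 0.82 for probe 2.

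JAK2 is the kinase of the erythropoietin, thrombopoietin, growth hormone and prolactin receptors and shares gp130 and the interferon gamma receptor with JAK1. Its level was 9.69, 8.38, 9.62 and 8.30 log2 units on replicates 1 to 4. Levels were higher on replicates 1 and 3 than on replicates 2 and 4. The means of these pairs differed by 1.32 log2 units, where 5.26% of named genes differed by as much or more in either direction. Probe 3 of JAK2 did not follow this split, reading 7.41 on replicate 3 and 7.74 on replicate 4. The neurofilament gene NEFM, from the list of identity genes, is named here after its values were seen. NEFM differed along the same split of the arrays, with mean levels of 13.33 on replicates 1 and 3 and 8.20 on replicates 2 and 4. With 4 arrays a likeness between 2 genes is no result, and a link of NEFM to JAK2 was not tested. JAK2's distances were 0.22, -1.56, -1.07 and -2.02, a mean of -1.11 ± 0.97 (SD, n = 4), so it was above the baseline on replicate 1 alone. Its first probe was above the baseline on replicates 1 and 3 (10.27 and 10.81) and below it on the others, its second on none of the arrays, and probe 3 on replicate 1. The position of JAK2 depended on the controls: without SPATA5 and SPATA13 its distance was 1.22 (limma adjusted p = 1.09e-04), and with olfactory receptor genes as controls it was 0.98 (limma adjusted p = 0.002).

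JAK3, the lymphocyte kinase, had levels of 7.33, 8.42, 7.75 and 8.65 log2 units. The distances were -2.14, -1.51, -2.94 and -1.67, with a mean of -2.07 ± 0.64 (SD, n = 4). None of its 3 probes reached the baseline on any array. The level of JAK3 was lower on replicates 1 and 3 than on replicates 2 and 4, with a difference of -0.998 log2 units between the means of these pairs. Its probes did not all follow this split. Probe 3 was highest on replicate 3 (8.52), and probe 2 read 7.74 on replicate 1 and 7.72 on replicate 4. With the lower baselines JAK3 came to 0.26 without SPATA5 and SPATA13 (limma adjusted p = 0.247) and to 0.02 with olfactory receptor genes (limma adjusted p = 0.667). JAK kinases thus gave 2 of 4 detected, where 52.7% of all named genes were. Among 28 other cytoplasmic tyrosine kinases 11 (39.3%) were detected, with 8 of these on all 4 arrays and 8 past the limma test. The shares of all named genes were 52.7%, 45.0% and 45.9%. FYN at 4.17 ± 0.61, CSK at 3.95 ± 0.57, PTK2 at 3.70 ± 0.51, SYK at 2.98 ± 0.67, LYN at 2.75 ± 0.70 and ABL1 at 2.28 ± 0.67 (SD, n = 4 for each) had the largest mean distances of these.

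**Figure D2:**
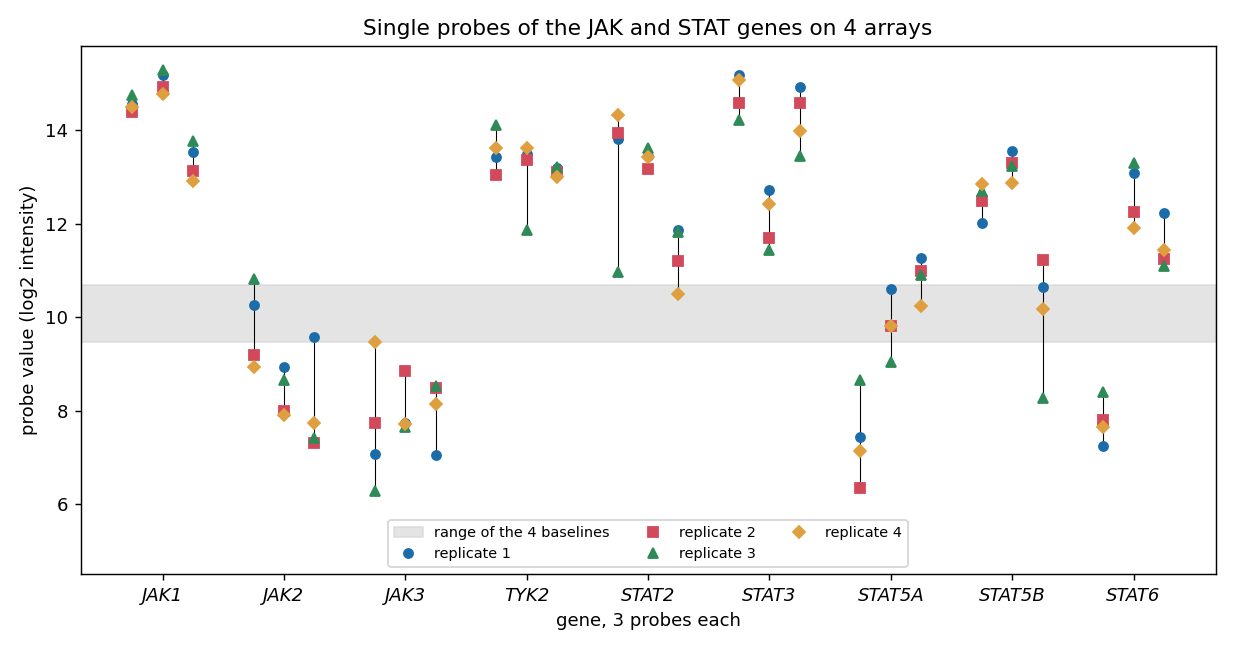
Log2 intensity (vertical axis) of each of the 3 probes of every JAK and STAT gene, with 1 point per array and a thin line joining the lowest and highest array; the grey band runs from the lowest baseline (9.47) to the highest (10.69). All probes of JAK1, TYK2, STAT2 and STAT3 lie above their arrays' baselines, while STAT6 has 1 probe near 8 and STAT5A has its probes on both sides of the band.

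Of the STAT factors 4 of 5 were detected, where 52.7% of all named genes were. STAT3, which conveys interleukin 6, leukemia inhibitory factor and leptin signals, had distances of 5.14, 4.15, 2.73 and 3.86 log2 units, a mean of 3.97 ± 0.99 (SD, n = 4). Its level was 14.61, 14.09, 13.42 and 14.18, so replicate 1 was high and replicate 3 low before the baseline was subtracted as well. All 3 probes were above the baseline on all 4 arrays.

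STAT2 joins IRF9 in the interferon-stimulated complex that turns on antiviral genes. The distances were 3.79, 3.21, 1.88 and 3.10 log2 units, with a mean of 2.99 ± 0.80 (SD, n = 4). Replicate 3 was the low array, and this came with a single probe: the first read 10.97 there and 13.82, 13.94 and 14.32 on replicates 1, 2 and 4, while the second read 13.16 to 13.62 on all arrays with replicate 3 the highest. Without replicate 3 the mean distance was 3.37.

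STAT6, the factor of interleukins 4 and 13, had distances of 2.68, 1.36, 1.34 and 0.83 log2 units, a mean of 1.55 ± 0.79 (SD, n = 4, limma adjusted p = 1.43e-05). Its probes disagreed more than those of the other members. The first was at 7.25 to 8.41, below the baseline on all 4 arrays, and probe 2 at 11.91 to 13.29 and probe 3 at 11.10 to 12.22 were above it on all 4. The range over the 3 probes averaged 4.86 log2 units, against a median of 1.66 for the named genes with exactly 3 probes. With the mean of the log2 probe values its distance fell to 0.87 (limma adjusted p = 0.019), and with a baseline of 3 SD it was 0.23 and no longer passed (limma adjusted p = 0.751). STAT6 had higher levels on replicates 1 and 3 (12.15 and 12.03) than on replicates 2 and 4 (11.30 and 11.15). Of its probes only the second followed this split, while probe 3 was lowest on replicate 3 (11.10) and probe 1 on replicate 1 (7.25).

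STAT5A and STAT5B are close copies that lie side by side on the chromosome and share most of their functions. The values nevertheless differed: STAT5B had distances of 3.07, 2.63, 1.74 and 2.07 log2 units, a mean of 2.38 ± 0.59 (SD, n = 4), and was above the baseline on every array. The level of STAT5B, 12.54, 12.57, 12.43 and 12.39, had an SD of 0.09, lower than that of any other member. Its single probes spread more, with SDs of 0.37, 0.28 and 1.27. STAT5A had distances of 0.97, 0.03, -0.80 and -0.78, a mean of -0.14 ± 0.84 (SD, n = 4), so that the baseline fell within its spread. It was above the baseline on replicates 1 and 2 and below it on replicates 3 and 4, which are the pairs that share a distribution of values. Its mean over replicates 1 and 2 alone was 0.50 and over replicates 3 and 4 alone -0.79. It also came above 0 without replicate 3 (0.08) or without replicate 4 (0.07), and with lower baselines, at 1.18 with 1 SD and 2.19 without SPATA5 and SPATA13 (limma adjusted p = 2.80e-04 and 1.23e-09). Single probes of STAT5A spanned 6.36 to 8.65, 9.05 to 10.60 and 10.24 to 11.26, and the last was above the baseline on 3 of 4 arrays. For STAT5B the probes spanned 12.01 to 12.86, 12.88 to 13.56 and 8.28 to 11.22, the last above the baseline on 2 arrays and lowest on replicate 3. Probe sequences were not used here, so how far a probe for either copy also binds the other's message was not tested.

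In the RefSeq gene order STAT5A lies between STAT5B and STAT3, and STAT3 is followed by CAVIN1, which stood at 3.63 ± 0.61 log2 units (SD, n = 4). The distance therefore went from 2.38 for STAT5B to -0.14 for STAT5A and 3.97 for STAT3 along adjacent genes, with the reservation about probes given above. The 250 bases before the most upstream annotated start of each are shown because the values of these neighbours differed. They are RefSeq sequence of build GRCh38.p14, written 5′ to 3′ on the gene's own strand, and capitals mark CpG dinucleotides. The STAT5B stretch is chr17:42276392-42276641 on the minus strand, that of STAT5A is chr17:42287189-42287438 on the plus strand, and that of STAT3 is chr17:42388443-42388692 on the minus strand.
STAT5B: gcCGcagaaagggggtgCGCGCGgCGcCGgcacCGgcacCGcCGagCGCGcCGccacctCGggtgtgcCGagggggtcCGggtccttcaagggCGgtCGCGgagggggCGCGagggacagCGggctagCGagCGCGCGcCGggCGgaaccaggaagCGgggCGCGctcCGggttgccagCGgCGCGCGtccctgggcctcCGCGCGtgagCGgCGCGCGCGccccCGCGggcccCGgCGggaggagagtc
STAT5A: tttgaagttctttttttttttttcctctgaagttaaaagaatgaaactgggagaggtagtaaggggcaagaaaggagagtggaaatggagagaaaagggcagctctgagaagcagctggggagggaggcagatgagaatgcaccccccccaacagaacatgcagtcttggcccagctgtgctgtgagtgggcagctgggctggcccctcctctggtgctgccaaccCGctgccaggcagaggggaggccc
STAT3: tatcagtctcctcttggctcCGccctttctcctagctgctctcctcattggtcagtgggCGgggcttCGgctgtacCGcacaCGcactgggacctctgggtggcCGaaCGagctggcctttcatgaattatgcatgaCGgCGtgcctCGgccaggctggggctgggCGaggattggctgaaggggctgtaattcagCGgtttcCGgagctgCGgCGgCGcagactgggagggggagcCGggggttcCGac
The STAT5B stretch held 47 CpG dinucleotides, the STAT5A stretch 1 and the STAT3 stretch 18, where the median of 35116 such windows in the RefSeq table is 11. STAT5A has further annotated starts, whose windows held 4 and 29. Which start the cells used was not measured by these arrays. Among the kinases, JAK3 had 1 window with 10 CpG dinucleotides and TYK2 1 with 19, JAK1 had 3 windows with 13, 3 and 35, and JAK2 had 4 windows with 8, 36, 22 and 10. STAT2 and STAT6 had 1 window each, with 21 and 11. Detected and undetected members thus both had windows above and below the median count.

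Most members had their highest distance on replicate 1 (8 of 9, the exception being JAK3), as 69.7% of all named genes did, and replicate 1 had the lowest baseline. The lowest distance fell on replicate 3, the array with the highest baseline, for 6 of 9 members and 58.2% of named genes. Of the 27 probes of the members, 16 were above the baseline on all 4 arrays, where 38.3% of all named probes were, and 6 were below it on every array. The share of named probes below it on every array was not computed.

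The receptors through which these kinases work were then set against the same baseline. Of 42 cytokine receptor chains measured, 12 (28.6%) were detected, 10 of them on every array and 9 past the limma test, beside shares of 52.7%, 45.0% and 45.9% of all named genes. The median distance was -1.42 log2 units. The count rested on the baseline, with 5 chains detected at 3 SD and 27 without SPATA5 and SPATA13. The interferon and interleukin 10 family gave 6 of 10. Its interferon gamma receptor chains IFNGR2, which binds JAK2, and IFNGR1, which binds JAK1, stood at 3.65 ± 0.58 and 3.08 ± 0.69 log2 units (SD, n = 4 for each), above the baseline on all 4 arrays. For the type I interferon receptor, IFNAR2, the chain that binds JAK1, had distances of 2.57, 1.66, 1.60 and 1.47, and IFNAR1, the chain that binds TYK2, had 1.29, 1.29, 0.28 and 0.30. Both chains were thus above the baseline on every array, as were TYK2, JAK1 and STAT2. IL10RB, a chain shared by interleukin 10 and interferon lambda receptors, stood at 0.90 ± 0.81 (SD, n = 4), with 0.11 on replicate 4.

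Of 7 gp130 family chains measured 3 were detected, where 52.7% of all named genes were. IL6ST, gp130 itself, had distances of 1.88, 2.47, 2.32 and 2.05, a mean of 2.18 ± 0.27 (SD, n = 4). The chain OSMR, which pairs with gp130 to bind oncostatin M, lay above the baseline on all 4 arrays at 0.28 ± 0.28 (SD, n = 4), with 0.001 on replicate 4, and did not pass the limma test (adjusted p = 0.431). IL6R and CNTFR, the ligand-binding chains for interleukin 6 and ciliary neurotrophic factor, named after their values were seen, were below the baseline on all 4 arrays. IL13RA1, which forms the receptor for interleukin 13 with IL4R and uses TYK2 and STAT6, stood at 3.30 ± 0.59 (SD, n = 4). Its partner chain IL4R, named after its values were seen, was not detected, with distances of 0.20, -0.56, -1.14 and 0.08 and a mean of -0.35 ± 0.62 (SD, n = 4).

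Of 8 chains of the common gamma family, 1 was detected, where 52.7% of all named genes were. This chain, IL15RA, stood at 0.95 ± 0.45 (SD, n = 4) and fell to -0.03 when its probes were summarised by their median. The gamma chain IL2RG, the binding partner of JAK3, had distances of -2.35, -1.03, -2.83 and -2.65, a mean of -2.21 ± 0.82 (SD, n = 4). JAK3 and IL2RG were thus both below the baseline on all 4 arrays, together with all 12 leukocyte markers, as were 6855 of 17217 named genes. Among 6 hormone-type receptors that signal through JAK2, the leptin receptor LEPR was detected at 1.13 ± 0.58 (SD, n = 4). This value averages separate probe sets (targets) of LEPR, which disagreed: with the highest target alone its distance was larger. The receptors for erythropoietin, thrombopoietin, growth hormone, prolactin and granulocyte colony-stimulating factor were not detected, with mean distances of -3.46 to -0.27. The common beta chain and interleukin 12 families gave 0 of 7, with the common beta chain CSF2RB at -1.28 ± 0.83 (SD, n = 4). CSF2RB came above the baseline without SPATA5 and SPATA13, at 1.05, and with olfactory receptor genes as controls, at 0.81 (limma adjusted p = 4.55e-04 and 0.006).

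Of 40 ligands 1 was detected (2.5%), where 52.7% of all named genes were. On all 4 arrays 37 of the ligands were below the baseline, as were 6855 of 17217 named genes. The detected ligand, CTF1, which encodes cardiotrophin 1, is named after its value was seen. It stood at 0.12 ± 0.58 log2 units (SD, n = 4), and the limma test called none of the ligands. Partners, adaptors and coactivators gave 10 of 10, 8 of them on all 4 arrays and 9 past the limma test, beside 52.7%, 45.0% and 45.9% of all named genes. NMI, named after its values were seen, counted as detected at 0.04 ± 1.06 (SD, n = 4), with 2 arrays above the baseline. USP18, an enzyme that holds back interferon receptor signalling, stood at 3.25 ± 0.56, the histone acetyltransferase EP300 at 2.95 ± 0.72, the signalling adaptor STAM at 2.91 ± 0.47, the adaptor SH2B1 at 2.58 ± 0.70, the JAK2 inhibitor SH2B3 at 2.05 ± 1.00 and the nuclear receptor coactivator NCOA1 at 1.85 ± 0.82 (SD, n = 4 for each). USP18 has closely related copies in the genome, and its value is uncertain for that reason. IRF9, the partner of STAT2, named after its values were seen, had distances of 2.61, 0.31, 0.93 and -0.28, so that it was below the baseline on replicate 4.

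**Figure D3:**
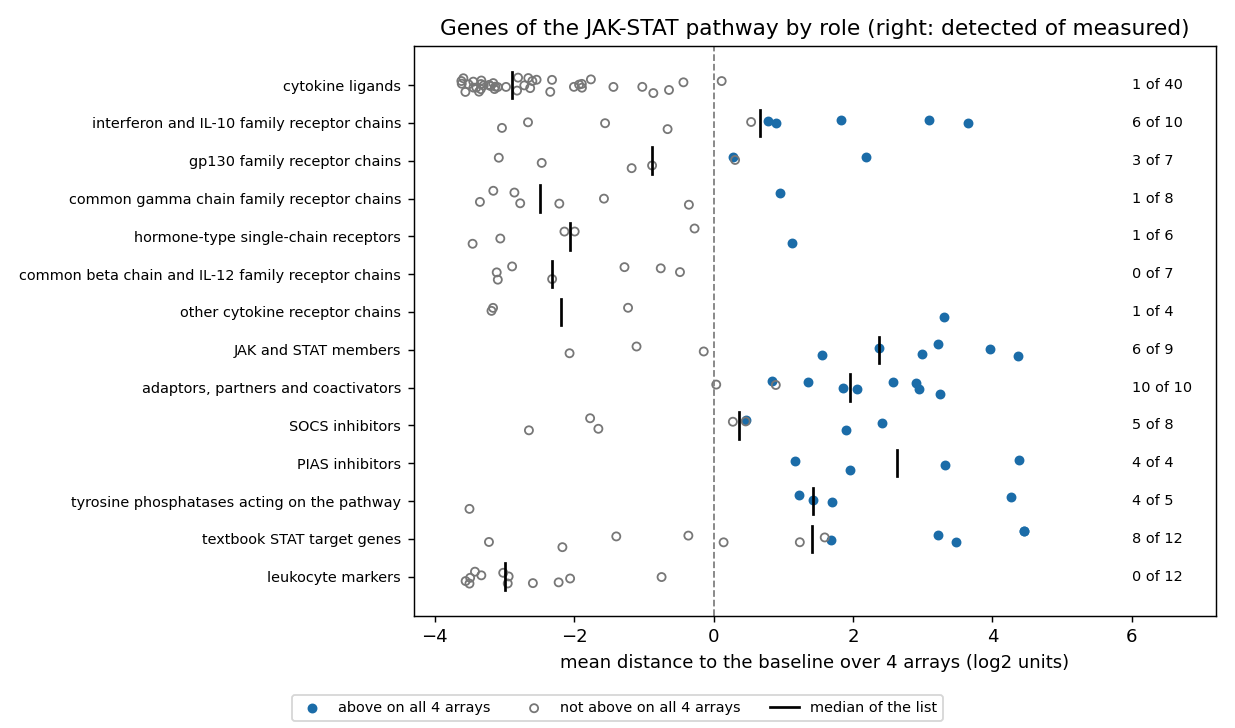
Mean distance to the baseline over 4 arrays (log2 units, horizontal axis) of each measured gene, grouped by role; filled points lie above the baseline on all 4 arrays, open points do not, black bars are list medians, and height within a row has no meaning. Ligands and leukocyte markers lie left of the dashed baseline apart from 1 ligand, while PIAS genes and partners lie to the right of it.

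Inhibitors of the pathway were detected in 13 of 17 cases (76.5%), 11 of them on all 4 arrays and 10 past the limma test, beside 52.7%, 45.0% and 45.9% of all named genes. With a baseline of 3 SD, 8 of the 17 were detected. All 4 PIAS genes, which encode SUMO ligases that bind STAT proteins, were above the baseline on all 4 arrays, with PIAS1 at 4.38 ± 0.67, PIAS2 at 3.31 ± 0.57, PIAS3 at 1.96 ± 0.43 and PIAS4 at 1.17 ± 0.51 log2 units (SD, n = 4 for each). Of the tyrosine phosphatases, PTPN11 stood at 4.26 ± 0.65, PTPN6 at 1.69 ± 0.09, PTPN2 at 1.42 ± 0.81 and PTPN1 at 1.22 ± 1.00 (SD, n = 4 for each). The value of PTPN2 averages targets that disagreed, and with the highest target alone its distance was larger. The leukocyte phosphatase PTPRC, at -3.50 ± 0.50 (SD, n = 4), was below the baseline on every array.

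The SOCS family, whose members bind receptors or kinases and end the signal, gave 5 of 8 detected, where 52.7% of all named genes were. SOCS2 at 2.42 ± 0.50 and SOCS6 at 1.91 ± 0.63 (SD, n = 4 for each) stood clear of the baseline. SOCS7 at 0.46 ± 0.27, SOCS4 at 0.46 ± 1.26 and SOCS5 at 0.28 ± 0.62 (SD, n = 4 for each) were near it, and SOCS4 was 1.25 below it on replicate 3. The count of 5 includes SOCS5, which fell to -1.03 with the mean and -2.12 with the median of its log2 probe values and to -0.01 without replicate 1, and SOCS4, which was -0.48 on replicates 3 and 4 alone. The members that STAT factors induce as feedback were below the baseline on all 4 arrays: SOCS3 at -1.65 ± 0.62, CISH at -1.77 ± 0.43 and SOCS1 at -2.65 ± 0.68 (SD, n = 4 for each). Without SPATA5 and SPATA13, SOCS3 came to 0.67 and CISH to 0.56 (limma adjusted p = 0.013 and 0.033), while SOCS1 stayed below 0. SOCS2, which stood above the baseline, is also known as a STAT5 target.

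CISH was the first member of the SOCS family found and is induced by STAT5. Its upstream stretch is shown because it holds several copies of the sequence to which STAT dimers bind, written TTCNNNGAA, which reads the same on both strands. The 250 bases before its RefSeq start, chr3:50611775-50612024 of GRCh38.p14 on the minus strand, are written 5′ to 3′ with the matches in capitals.
CISH: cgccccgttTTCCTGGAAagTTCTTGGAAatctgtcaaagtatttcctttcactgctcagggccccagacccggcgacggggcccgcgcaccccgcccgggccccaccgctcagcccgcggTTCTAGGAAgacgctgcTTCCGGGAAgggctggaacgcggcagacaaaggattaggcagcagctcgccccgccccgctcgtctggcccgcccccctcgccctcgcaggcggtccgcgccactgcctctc
It held 4 matches. A match occurred in 6.57% of the 35116 windows, and 4 or more in 5 windows (0.0142%). The 9 members themselves had 16 windows, and none of these held TTCNNNGAA. Of 89 other pathway genes with a window, 15 held TTCNNNGAA. This counts genes, some of which have several windows, so it cannot be set against the share of windows above. A share per gene over all genes was not computed. A match marks these letters in this window and no binding was measured.

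Textbook STAT target genes, each of which has other regulators too, were detected in 8 of 12 cases. Of these, 5 were above the baseline on all 4 arrays and 7 passed the limma test. The shares of all named genes were 52.7%, 45.0% and 45.9%. Above the baseline on all 4 arrays were BIRC5 at 4.45 ± 0.57, MYC at 4.45 ± 1.13, CCND1 at 3.48 ± 0.79, MCL1 at 3.22 ± 0.80 and PIM1 at 1.69 ± 0.90 log2 units (SD, n = 4 for each), genes for survival and cell division. IRF1, JUNB and A2M, named after their values were seen, were below the baseline on all 4 arrays, with mean distances of -2.17, -1.40 and -3.22. The other targets are also named after their values were seen. BCL6 counted as detected at 0.14 ± 1.00 (SD, n = 4), with 1 array above the baseline. BCL2L1 and VEGFA were detected but below the baseline on replicate 3, at -0.29 and -0.45. FOS was not detected, at -0.36 ± 0.88 (SD, n = 4).

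**Figure D4:**
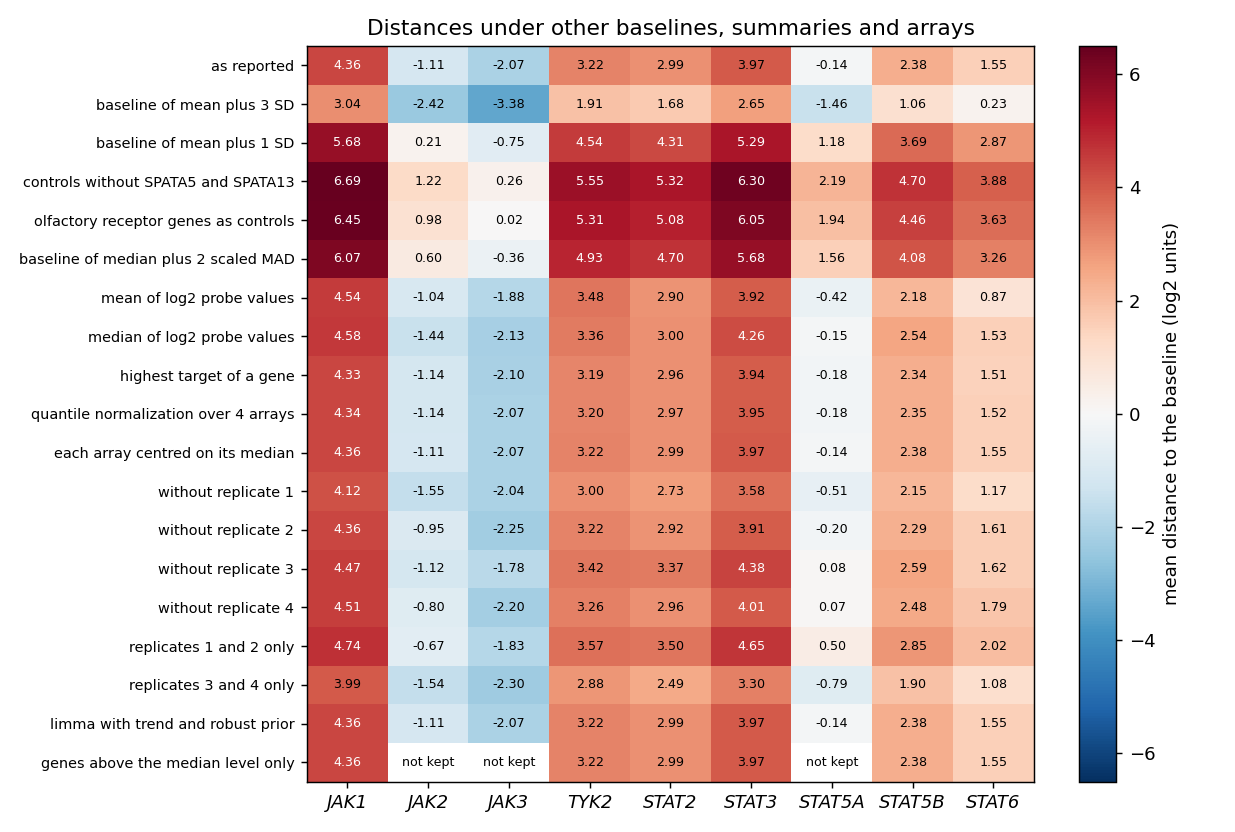
Mean distance to the baseline (log2 units, printed in each cell and shown by colour) of each JAK and STAT gene as reported (top row) and under each alternative (other rows). The 6 detected genes stay above 0 in every row, from 0.23 for STAT6 with a baseline of 3 SD upward, while STAT5A, JAK2 and JAK3 change sign with lower baselines.

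JAK1, TYK2, STAT2, STAT3, STAT5B and STAT6 kept a distance above 0 under all 18 alternatives, with ranges of 3.04 to 6.69, 1.91 to 5.55, 1.68 to 5.32, 2.65 to 6.30, 1.06 to 4.70 and 0.23 to 3.88 log2 units. Not all of these alternatives could take a detected gene below 0. Centring each array, changing the limma prior and keeping only genes above the median level leave its distance unchanged, and the lower baselines raise it. The height of the baseline moved the members and all other genes together. With 3 SD, 6 members were detected (39.1% of all named genes) and 5 passed the limma test (28.6%). With 1 SD, these numbers were 8 (64.3%) and 7 (58.9%), and with the median plus 2 scaled MAD of the controls 8 (67.7%) and 7 (62.3%). Without SPATA5 and SPATA13 they were 9 (74.0%) and 8 (68.6%), and with olfactory receptor genes as controls 9 (71.4%) and 8 (66.3%). The separate cultures are those the labels name as biological replicates of 1 line, so the errors given describe the spread between cultures and arrays of HEK293 cells in these conditions.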

How the data were processed

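RNA of 4 HEK293 cultures was measured on 4 single-colour NimbleGen arrays designed on the HG18 gene catalogue. For each probe and array there is 1 log2 value, as the authors deposited it, made from scanned intensities with the maker's software. The submitters' processing notes name RMA, and background correction is not given in the sources used here. The deposited values have the form of quantile normalization within 2 separate pairs of arrays (replicates 1 and 2, and 3 and 4), and the 4 arrays limit the precision. Accessions were matched without versions to RefSeq names (GRCh38.p14), which named 19125 of 24000 targets, or 17217 genes. IL11RA, SH2B2 and the control PYY2 were listed but are not analysed here.

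Probes of a target were averaged on the linear scale and put back to log2, and targets of a gene were averaged on the log2 scale. Distances to the baseline were tested against 0, one-sided, with limma 3.58 in R 4.3, intercept only, Benjamini-Hochberg adjustment over all 17217 genes. In the fit as reported the prior degrees of freedom were infinite, so every gene had a standard error of 0.351, and a shift of a baseline moves all genes together. Under some alternatives they were finite, for example 36.59 without SPATA5 and SPATA13 and 20.96 with olfactory receptor genes, and standard errors differed. An exact sign-flip test over 4 arrays cannot reach 0.05.

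Members and lists were chosen with earlier results of these data known. Named genes were the members, shared receptor chains, SOCS and PIAS genes, and in other lists up to 6 genes by mean distance, taken from those that passed the baseline on every array. Alternatives changed the baseline, controls, probe summary, normalization, test and arrays.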

Additional observations from a re-analysis of the deposited data

Results flagged for a closer look

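For 59 named genes and the 27 member probes, the gap between the highest or lowest array and its nearest neighbour was divided by the range over the 4 arrays and set against Dixon's 95% critical value. Chance alone passes about 1 in 20, and 5 values passed here, while 6.35% of all named probes did. The second probe of JAK3 read 8.85 on replicate 2 but 7.66 to 7.74 elsewhere (ratio 0.929), all of them below the baseline. The second probe of TYK2 read 11.86 on replicate 3 and 13.36 to 13.61 on the others (0.856). The first probe of STAT2 read 10.97 on replicate 3 and 13.82 to 14.32 on the others (0.851). Probes that were apart and low on replicate 3 made up 2.06% of all named probes. The distance of the STAT target PIM1 was 3.02 on replicate 1, with the other arrays at 1.17 to 1.37 (0.892), and that of the kinase CSK was 3.11 on replicate 3, with the other arrays at 4.13 to 4.33 (0.835).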

How the results depend on the processing

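No alternative took JAK1, TYK2, STAT2, STAT3, STAT5B or STAT6 below the baseline, and the limma test lost 1 of them in 1 case, STAT6 at 0.23 with a baseline of 3 SD. Only the baseline of 3 SD and the changes of probe summary, target, quantile normalization and arrays could lower their distances. Distances changed sign for STAT5A, which came to 1.18 with 1 SD, 2.19 without SPATA5 and SPATA13, 1.94 with olfactory receptor genes as controls, 1.56 with the median plus 2 scaled MAD, -0.51 to 0.0772 over the fits that left out 1 array (0.0772 without replicate 3, 0.0697 without replicate 4), and 0.50 on replicates 1 and 2 alone. They changed sign for JAK2, at 0.21, 1.22, 0.98 and 0.60 under the first 4 of these settings, and for JAK3, at 0.26 without SPATA5 and SPATA13 and 0.0174 with olfactory receptor genes. Members detected numbered 6 to 9 over all alternatives and members called by limma 5 to 8. With a baseline of 3 SD, the distances of IFNAR1 (-0.53), IL10RB (-0.42), SOCS7 (-0.86), PIAS4 (-0.15), OSMR (-1.04), IL15RA (-0.37), LEPR (-0.19) and PTPN1 (-0.0948) fell below 0, as did SOCS4 (-0.86) and SOCS5 (-1.04). Other settings took 3 of these below 0: IL15RA with the median of its probes (-0.0272), SOCS5 with the mean (-1.03) or median (-2.12) of its probes, without replicate 1 (-0.01) and on replicates 3 and 4 (-0.16), and SOCS4 on replicates 3 and 4 (-0.48). Using the highest target in place of the average of targets raised the distances of LEPR and PTPN2. Among undetected genes, lower baselines took CSF2RB, SOCS3, CISH and IL2RG above 0, to 1.05, 0.67, 0.56 and 0.11 without SPATA5 and SPATA13. Cytokine receptor chains detected were 5 with 3 SD, 21 with 1 SD, 27 without SPATA5 and SPATA13, 24 with olfactory receptor genes and 23 with the median and MAD, and inhibitors were 8 with 3 SD. These counts follow from the height of the baseline, which was 11.42 with 3 SD, 8.79 with 1 SD, 7.78 without SPATA5 and SPATA13, 8.02 with olfactory receptor genes and 8.40 with the median and MAD, against 10.10 as reported. The other 80 counts stayed within 1.5 times the reported count. For 6 of 9 members and 13 of 17 inhibitors no rise could pass that limit. A rise to all 9 members is therefore counted as within it. No paired analysis was possible because the design has 1 group. Raw intensities were not used, so signal over background of single spots is unknown.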
